A study of Schizosaccharomyces pombe with 12 samples.

Results

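The genes described here are the transfer RNA (tRNA) genes of the fission yeast Schizosaccharomyces pombe, as listed in the annotation that the study deposited for its modified genome. They were chosen by name alone: every feature whose name carries TRNA after SP and a chromosome letter, or after SPMIT for the mitochondrial genome, with the amino acid read from the 3 letters that follow. This gave 196 of the 7002 annotated features, 171 of them among the 6970 features of the nuclear chromosomes and 25 in the mitochondrial genome. The study placed an inducible double-strand break, made by the homing endonuclease I-PpoI, on chromosome II and profiled 12 ChIP-exo libraries in 6 groups of 2. In ChIP-exo, DNA recovered with an antibody is cut back by an exonuclease until it reaches the bound protein. One kind of library was made with S9.6, an antibody against RNA-DNA hybrids, from Rnh1del-Rnh201del cells, which lack both ribonuclease H genes named there, with I-PpoI on and with it off. The other kind recovered Ssb2 (part of RPA, which coats single-stranded DNA) through a Flag tag: from WT cells without and with I-PpoI induction, and, with I-PpoI on, from Rnh1del-Rnh201del and from pNmt1::Rnh1 cells. The library titles name the pNmt1::Rnh1 cells as Rnh1 overexpression. Every group has the break system. Library signal and depth were not analysed here, so no level of any tRNA gene is given and no group is compared. The values are counts and distances over a complete list of annotated genes, without replicates, sampling error or tests.

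A tRNA pairs with codons through its anticodon and carries the matching amino acid to the ribosome. RNA polymerase III transcribes tRNA genes from promoter elements inside the gene, the A box and the B box, and stops at a run of T after it. In fission yeast the tRNA gene is also known as a chromatin boundary, and the centromeres are known to hold clusters of tRNA genes. The annotation used here does not mark centromeres.

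The sequences of the tRNA genes that recur most often are shown first. They were read from RefSeq ASM294v3, whose 171 nuclear tRNA genes matched the deposited features 1 to 1 by locus tag, and intron bases were taken out. Capitals mark the anticodon. The Ala AGC and Val AAC sequences are each present in 9 identical spliced copies, the Arg ACG, Gly GCC and Lys CTT sequences in 8 each, and the Asp GTC and Ser AGA sequences in 7 each. Of these 56 genes, 31 lie in the clusters described below, beside 75 of all 171 nuclear tRNA genes (43.9%). The numbers run from 8 of the 9 Ala AGC genes to 1 of the 7 Ser AGA genes.
SPATRNAALA.04 (chrI:3765008-3765081, minus strand): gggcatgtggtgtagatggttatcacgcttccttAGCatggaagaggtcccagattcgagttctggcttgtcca
SPATRNAVAL.04 (chrI:3710739-3710821, minus strand): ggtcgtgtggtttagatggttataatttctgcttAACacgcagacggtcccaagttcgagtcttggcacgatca
SPATRNAARG.02 (chrI:3736520-3736592, plus strand): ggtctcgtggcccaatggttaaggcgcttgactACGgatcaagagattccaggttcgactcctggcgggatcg
SPBTRNAGLY.03 (chrII:180994-181064, minus strand): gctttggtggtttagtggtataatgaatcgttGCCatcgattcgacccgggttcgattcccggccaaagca
SPATRNALYS.04 (chrI:2684683-2684765, minus strand): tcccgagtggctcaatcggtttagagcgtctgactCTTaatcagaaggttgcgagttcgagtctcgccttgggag
SPCTRNAASP.05 (chrIII:1068029-1068099, plus strand): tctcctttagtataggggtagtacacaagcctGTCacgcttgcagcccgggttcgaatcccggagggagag
SPATRNASER.02 (chrI:3047677-3047758, minus strand): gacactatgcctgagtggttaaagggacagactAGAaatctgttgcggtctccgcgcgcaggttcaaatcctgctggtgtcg
Each position in this list spans the whole gene, intron included, in ASM294v3. The deposited tRNA features began 1 base before the RefSeq gene and ended at the same base in all 171 cases, once the 1842 bases of the inserted break system were taken off positions right of it on chromosome II. Deposited lengths are therefore 1 base longer, and deposited gaps 1 base shorter, than those of RefSeq. In what follows, gene positions, cluster spans and gaps are those of the deposited annotation (ASM294v2 with the insert, counted from 1), and sequences are those of ASM294v3.

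The nuclear set covered all 20 amino acids. Arg, Leu and Ser had 13 genes each, Ala, Gly, Lys and Val 12 each, and Glu and Thr 10 each. Ile and Pro had 9 genes, Asp 8, Met 7, Asn and Gln 6, and Phe 5. At the lower end, His and Tyr had 4 genes each and Cys and Trp 3 each. Chromosome I held 56 of the genes, chromosome II 68 and chromosome III 47, which is 10.04, 15.0 and 19.2 genes per Mb. The shortest chromosome thus had the highest density. Its tRNA genes made up 3.65% of its features, against 1.79% on chromosome I and 2.66% on chromosome II. Much of the spread in density lay in the longest stretch of each chromosome without protein-coding genes, which is described below. Outside these stretches the density was 8.84 genes per Mb on chromosome I, 9.13 on chromosome II and 10.9 on chromosome III. Several amino acids had no gene on a chromosome. Chromosome I had none for Asn, Gln or His, chromosome II none for Cys, and chromosome III none for Cys, Trp or Tyr. The 3 Cys genes all lay on chromosome I, whereas 7 of the 13 Ser genes lay on chromosome III and 7 of the 12 Gly genes on chromosome II. The strands were about even, with 91 genes on the plus and 80 on the minus strand. The plus-strand share was 53.2%, beside 51.5% over all nuclear features. Cys, His and Tyr genes, only 3 or 4 each, were all on the plus strand. On the minus strand were 9 of the 12 Val genes, several of them copies in the repeated blocks described below.

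**Figure D1:**
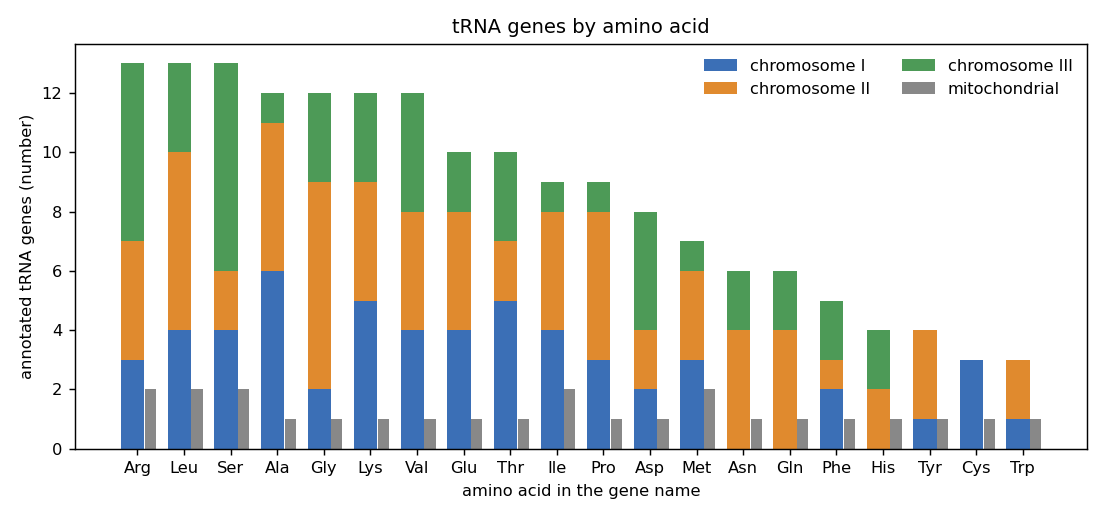
Number of annotated tRNA genes (vertical axis) for each amino acid (horizontal axis), with the nuclear genes stacked by chromosome and the mitochondrial genes as grey bars beside them. Nuclear numbers run from 3 (Cys, Trp) to 13 (Arg, Leu, Ser), while each amino acid has 1 or 2 mitochondrial genes.

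Numbers of tRNA genes were set beside the use of each amino acid in the proteins of the same genome. Over the 20 amino acids, the number of nuclear genes and the share of residues in 5110 RefSeq nuclear proteins had a Pearson r of 0.807, given as a description because the amino acids are not samples. Leu, the most used residue at 9.86%, and Ser at 9.43% were among the 3 amino acids with 13 genes. Trp, the least used at 1.12%, had 3. The share of tRNA genes was 1.98 times the share of residues for Met, whose genes are split between translation start and elongation. It was 1.57 times for Trp, 1.56 times for Arg and 1.43 times for Gly. It was lowest for Phe, at 0.636 times, followed by Asn at 0.673, Tyr at 0.684 and Leu at 0.771.

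Anticodons show how these genes are spread over codons. An anticodon in a stem and loop of the usual form was found in 168 of the 171 transcripts, and the other 3 genes were given the anticodon of the gene with the same genomic sequence (on the opposite strand for SPBTRNAASP.05). There were 45 distinct anticodons for the 61 sense codons. AAC (Val), AGC (Ala) and CTT (Lys) had the most genes, 9 each. At the other end, 12 anticodons had 1 gene each: CAC (Val), CAG and TAG (Leu), CCC (Gly), CCG, CCT and TCG (Arg), CGA (Ser), CGC (Ala), CGG (Pro), CGT (Thr) and TAT (Ile). The 16 sense codons with no gene of the exactly matching anticodon all ended in C (8) or T (8) and made up 26.7% of the 2375952 codons counted. As background, such codons are read by wobble pairing, and an A in the first anticodon position is known to be changed to inosine. Anticodons beginning with A numbered 8 and belonged to 59 genes. Gene number did not follow codon use everywhere. GCC (Gly) had 8 genes for a matching codon of 0.818% of codons, or 2.88% together with GGT, which has no gene of its own, whereas TTC (Glu) had 4 genes for 4.47% and TTT (Lys) 3 genes for 4.03%.

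In 2 pairs of spliced sequences, genes of different anticodons differed at 1 base. One was SPATRNASER.01 (CGA) and SPCTRNASER.11 (TGA), which are described below. The other lay in the Gln cluster on chromosome II, where SPBTRNAGLN.01 and SPBTRNAGLN.02 lie on opposite strands, point towards each other and differ at 1 base, in the anticodon, shown in capitals.
SPBTRNAGLN.01 (chrII:257454-257525, plus strand): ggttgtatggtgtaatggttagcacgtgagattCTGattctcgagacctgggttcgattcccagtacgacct
SPBTRNAGLN.02 (chrII:257908-257979, minus strand): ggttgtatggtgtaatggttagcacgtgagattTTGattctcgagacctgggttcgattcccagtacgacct
Genes of the same anticodon can be far less alike. All 7 Met genes carry CAT, but 4 are annotated as initiator genes, whose product starts translation, and 3 serve elongation. The initiator sequence had no intron and the elongator genes all had one. After splicing the initiator and elongator sequences differed at 35 aligned positions, an identity of 52.7%.
SPATRNAMET.01, initiator (chrI:1096474-1096545, plus strand): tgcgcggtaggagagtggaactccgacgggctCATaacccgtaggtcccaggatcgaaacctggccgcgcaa
SPATRNAMET.02, elongator (chrI:1484979-1485061, minus strand): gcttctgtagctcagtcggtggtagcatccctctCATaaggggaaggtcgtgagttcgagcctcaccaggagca

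The spliced transcripts of the 171 genes amounted to 64 distinct sequences. Of these, 32 occurred once, and the other 32 occurred in 2 to 9 copies and accounted for 139 genes. SPBTRNAASP.05, SPBTRNALYS.07 and SPBTRNASER.06 count among the single sequences through their annotated strand or intron bounds alone, and with each joined to its genomically identical gene there were 61 distinct sequences, 29 of them single. Copies were spread over the genome: 25 of the 32 repeated sequences lay on more than 1 chromosome and 11 on all 3. Spliced lengths ran from 71 to 86 bases (median 73). Deposited features ran from 72 to 103 bases (median 74), against a median of 1667 bases over the other nuclear features, and the longest was SPBTRNAARG.05. The GC content of the spliced genes together was 54.4%, with single genes from 45.2% to 63.9%, against 36.1% for the nuclear genome.

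Spacing between neighbouring nuclear tRNA genes ranged widely. Over the 168 neighbouring pairs the median gap was 29146 bases, with quartiles of 804.25 and 105916 bases and a range from 4 to 453542 bases. Gaps under 5 kb, the distance that defines a cluster here, separated 55 pairs, 46 of them under 1 kb. A further 7 pairs were 5 to 10 kb apart and 46 pairs were more than 100 kb apart. The largest gap inside the limit was 3067 bases and the smallest outside it 5237 bases. The closest pair was SPBTRNAASN.01 and SPBTRNAMET.05 on chromosome II, 4 bases apart. Each of the 3 Ser and initiator Met pairs followed at 6 bases. The most distant neighbours were SPBTRNAPRO.08 and SPBTRNALYS.09 (453542 bases), SPATRNAILE.01 and SPATRNAVAL.03 (442362 bases), and SPATRNAALA.05 and SPATRNALEU.04 (281761 bases). Neighbours lay on the same strand in 85 of the 168 pairs, pointed towards each other in 42 and away from each other in 41. Among the 55 close pairs these numbers were 27, 16 and 12.

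**Figure D2:**
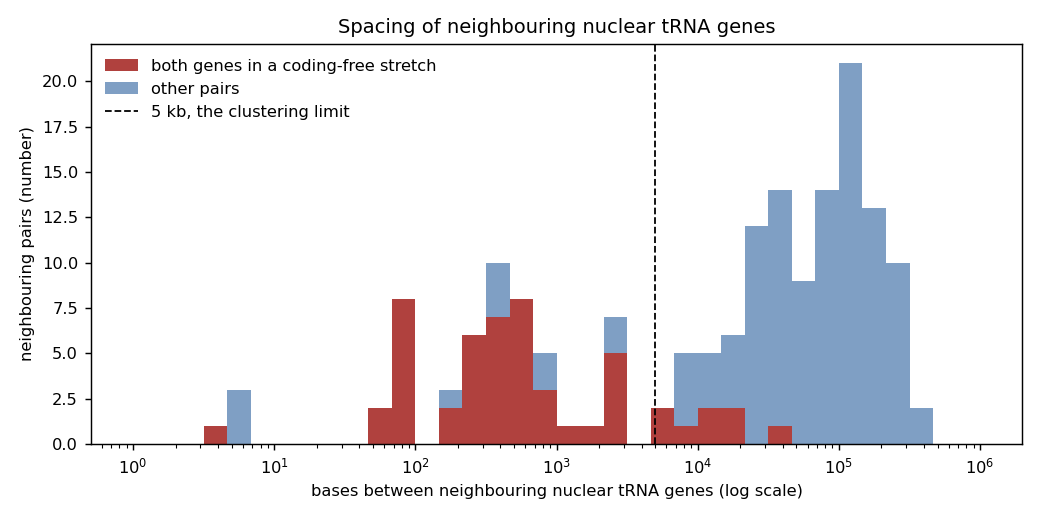
Distribution of the gaps between the 168 neighbouring nuclear tRNA gene pairs, in bases on a log axis, with the number of pairs on the vertical axis. Red bars are pairs with both genes in the longest protein-coding-free stretch of their chromosome, blue bars all other pairs; the dashed line marks 5 kb, which 55 pairs lie below.

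Joining neighbours less than 5 kb apart gave 20 clusters with 75 of the 171 nuclear genes (43.9%), and 96 genes stood alone. Of the clusters, 10 had 2 genes and 5 had 3 genes, and single clusters had 5, 6, 8, 9 and 12 genes. The 5 clusters of 5 or more genes held 40 genes between them, and all of these clusters were on chromosomes II and III. Chromosome I had 5 clusters with 12 genes, chromosome II 8 with 36 and chromosome III 7 with 27. Both strands were used within 14 clusters and a single strand in 6. In 6 clusters other annotated features lay between the genes.

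The largest cluster, at chrII:1599837-1604259, ran from left to right as Asn, Met, Tyr, Leu, Gly, Lys, Ile, Ala, Val, Glu, Arg and Asp. Tyr, Lys, Ile, Arg and Asp were annotated on the plus strand and the other 7 on the minus strand. No other feature lay inside it, and its gaps ran from 4 to 659 bases. The 9-gene cluster, at chrII:1645690-1649197, held Tyr, Leu, Gly, Lys, Ile, Ala, Val, Glu and Arg, with Tyr, Lys and Ile on the plus strand. Between these lay a pair of 3-gene clusters, Ile, Ala and Val at chrII:1620134-1621098 and the same genes in the opposite order and strands at chrII:1631000-1631964. On chromosome III the 8-gene cluster at chrIII:1065043-1071175 held Ala, Val, Ser, Arg, Asp, Arg, Leu and Lys. The 6-gene cluster at chrIII:1092436-1097570 held Asp, Arg, Val, Thr, Leu and Glu. The 5-gene cluster at chrIII:1102808-1106557 held Leu, Thr, Val, Arg and Asp. On chromosome I the 2 clusters of 3 genes were Ala, Glu and Ile at chrI:3765007-3768363 and Ile, Glu and Ala at chrI:3773909-3777265.

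**Figure D3:**
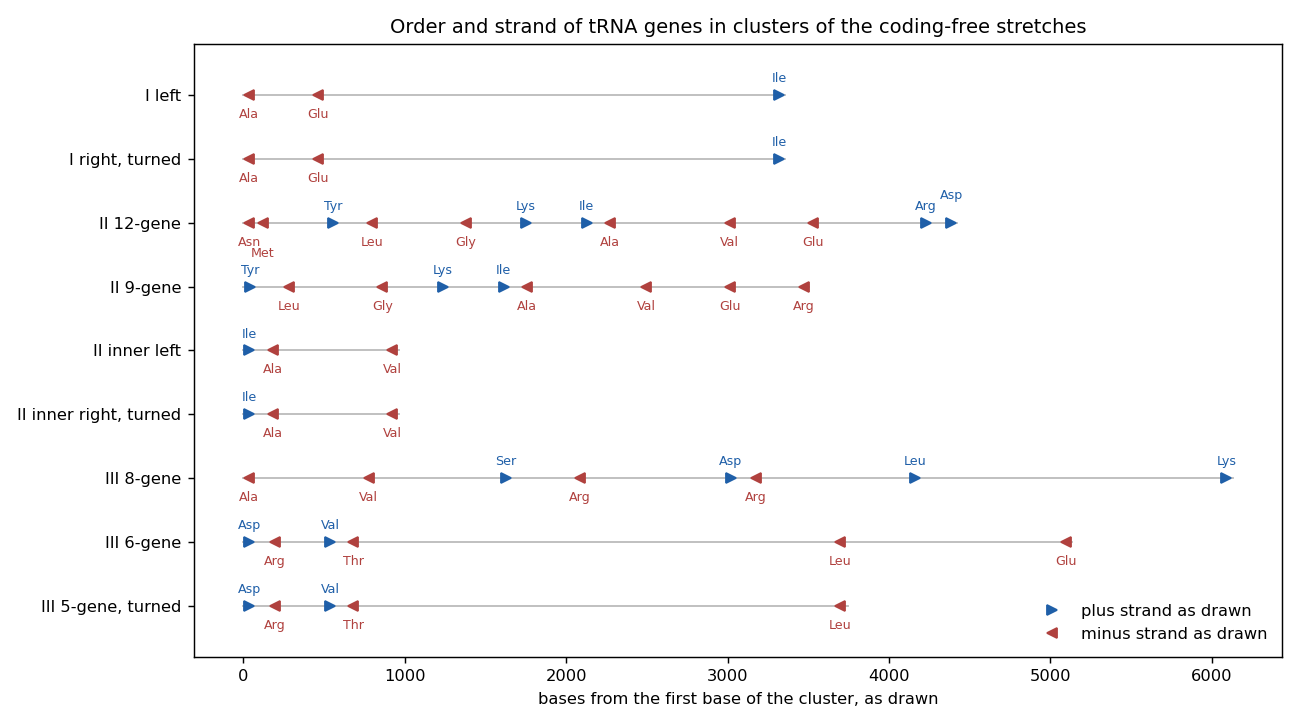
Order and strand of the tRNA genes in 9 clusters, by distance in bases from the first base of the cluster as drawn. Arrowheads to the right (blue) are genes on the plus strand and to the left (red) on the minus strand as drawn; rows named turned are reversed, and in that form the paired rows of chromosome I and the inner pair of chromosome II show the same genes at the same spacing, as do the 5- and 6-gene rows of chromosome III apart from the Glu gene at the right end of the 6-gene row.

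Many of these clusters lay in regions without protein-coding genes. Since the annotation does not mark centromeres, the longest stretch without a RefSeq protein-coding gene was taken on each chromosome, a definition chosen after the data were seen. The stretches were 39194 bases on chromosome I, 51487 bases on chromosome II and 78172 bases on chromosome III, in ASM294v3 chrI:3751730-3790923, chrII:1596745-1648231 and chrIII:1064444-1142615. They held 7, 27 and 21 tRNA genes. Thus 55 of the 171 nuclear genes (32.2%) lay in 1.34% of the nuclear genome, a density of 326 genes per Mb against 9.35 per Mb elsewhere (34.8-fold). The second-longest stretches without coding genes, of 6495, 12283 and 28297 bases, held 0 tRNA genes. By definition the stretches held no coding gene, but they held 132 other RefSeq genes that are not tRNA genes, 782 per Mb against 992 per Mb in the rest of the nuclear chromosomes with coding genes included. On chromosomes II and III genes stood near both edges of the stretch. The outermost genes were 1251 and 876 bases from the 2 edges on chromosome II, 600 and 351 bases on chromosome III, and 604 and 13658 bases on chromosome I. All 5 clusters of 5 or more genes lay inside, and 10 of the 20 clusters, with 54 genes, lay wholly inside. SPATRNAPHE.02 was the remaining gene inside, and it stood alone. The median gap between neighbours was 465 bases inside (52 pairs) and 69767.5 bases outside (110 pairs).

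**Figure D4:**
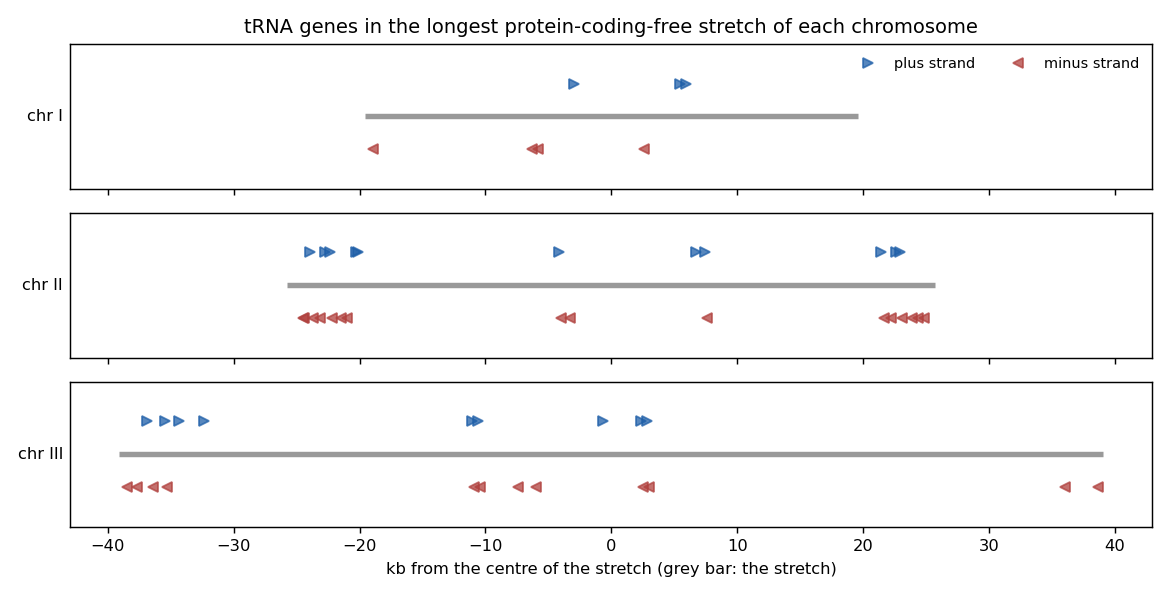
Positions of the 55 tRNA genes inside the longest protein-coding-free stretch of each nuclear chromosome, in kb from the centre of the stretch (grey bar). Genes on the plus strand are drawn above the bar and genes on the minus strand below. Chromosome I has 7, chromosome II 27 and chromosome III 21. Groups lie near the edges and near the centre on chromosomes II and III. On chromosome I they lie near the centre, with a single gene near the left edge.

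The share of genes in the stretches, 32.2% over all 171 nuclear tRNA genes, differed between amino acids. The stretches held 15 amino acids, with 7 of the 12 Ala genes, 7 of the 12 Val genes and 6 of the 9 Ile genes. They held 1 of the 13 Ser and 2 of the 12 Gly genes, and 0 genes of Cys, Gln, His, Pro and Trp. Cys and Trp have 3 genes each and His 4, so 0 inside says little for them. Many of the Ala, Val and Ile genes inside belong to the repeated blocks described below and are not independent of each other. For 42 of the 55 genes inside, a gene outside had the same spliced sequence. The 13 others were the 6 identical Ile AAT genes, all 4 Leu CAA genes, SPCTRNAARG.10 with the single TCG anticodon, and SPBTRNALYS.07 and SPBTRNAASP.05, whose annotation is described below. Outside the stretches, the 10 clusters held 21 genes. They were the 3 Ser and initiator Met pairs, the 3 Gln genes at chrII:257453-258919, and the pairs Cys and Phe on chromosome I, Gly and Ala, Gly and Arg, and Lys and Tyr on chromosome II, and Ile and Gly and Ser and Gln on chromosome III.

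The order of genes was repeated within and between clusters. Among neighbours less than 5 kb apart, 14 kinds of pair (the same amino acids, relative strands and a gap within 5 bases) occurred more than once and covered 35 of the 55 pairs. The most frequent was Ala and Val 659 bases apart, with 4 copies on chromosome II and 1 on chromosome III. Ile and Ala 72 bases apart occurred 4 times on chromosome II. The pair below is the copy in the left inner cluster of chromosome II, in ASM294v3 on the plus strand, with the Ile gene and then the Ala gene in capitals; the genes point towards each other.
SPBTRNAILE.06 and SPBTRNAALA.09 (chrII:1618293-1618513, plus strand): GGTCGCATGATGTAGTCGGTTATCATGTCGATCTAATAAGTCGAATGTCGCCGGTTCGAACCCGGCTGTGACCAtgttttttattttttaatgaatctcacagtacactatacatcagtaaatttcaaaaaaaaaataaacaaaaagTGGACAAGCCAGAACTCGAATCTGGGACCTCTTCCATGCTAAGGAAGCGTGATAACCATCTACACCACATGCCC
Asp and Arg 81 to 86 bases apart, on opposite strands and pointing towards each other, occurred 3 times on chromosome III. The copy in the 5-gene cluster is shown in the same way, Arg gene first.
SPCTRNAARG.13 and SPCTRNAASP.07 (chrIII:1106327-1106557, plus strand): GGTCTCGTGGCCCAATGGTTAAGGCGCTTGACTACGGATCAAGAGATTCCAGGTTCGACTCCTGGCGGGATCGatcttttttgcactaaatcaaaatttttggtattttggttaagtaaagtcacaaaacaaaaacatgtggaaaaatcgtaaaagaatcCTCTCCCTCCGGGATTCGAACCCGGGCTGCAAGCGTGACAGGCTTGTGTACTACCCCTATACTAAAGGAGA

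Sequence identity ran beyond the genes. On chromosome I the 3356 bases from Ala to Ile and their inverted copy had 0 differences, with 5546 bases between the copies. On chromosome III the 3749 bases from Asp to Leu and their inverted copy also had 0 differences, with 6623 bases between them. In 500-base windows at 90% identity or more, the similarity went on for a further 8500 bases outwards on chromosome I and 9000 bases on chromosome III, and for 500 bases inwards on both. On chromosome II the inner inverted copies of Ile, Ala and Val, 964 bases long, differed at 8 positions (99.2% identity), and similarity went on for 1500 bases on each side. The copies of these 3 genes in the 12- and the 9-gene cluster had 0 differences from the left inner copy. The 3052 bases from Tyr to Glu of the 12-gene cluster differed from those of the 9-gene cluster, 42286 bases away and in the same direction, at 1 position, and the windows next to them were not similar. The 817 bases of Ala and Val on chromosome III differed from those of the left inner copy on chromosome II at 7 positions (99.1%).

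In 4 places 2 tRNA genes on the same strand lay less than 20 bases apart. In 3 of these, on chromosomes I and III, a Ser gene with an intron was followed after 7 bases (RefSeq) by an initiator Met gene, so 3 of the 4 initiator Met genes were in such a unit. The units are printed with the genes, introns included, in capitals.
SPATRNASER.01 and SPATRNAMET.01 (chrI:1096369-1096545, plus strand): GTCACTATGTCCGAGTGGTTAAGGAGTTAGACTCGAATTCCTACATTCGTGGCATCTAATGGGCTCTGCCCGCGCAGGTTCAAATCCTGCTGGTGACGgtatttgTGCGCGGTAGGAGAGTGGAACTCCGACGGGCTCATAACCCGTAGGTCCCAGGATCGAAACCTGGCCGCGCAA
SPATRNASER.03 and SPATRNAMET.03 (chrI:4265149-4265324, plus strand): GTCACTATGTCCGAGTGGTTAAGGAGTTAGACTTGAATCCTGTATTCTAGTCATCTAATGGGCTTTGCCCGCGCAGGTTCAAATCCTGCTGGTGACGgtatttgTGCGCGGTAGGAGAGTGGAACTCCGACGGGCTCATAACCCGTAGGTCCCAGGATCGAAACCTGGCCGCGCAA
SPBTRNAMET.05 and SPBTRNAASN.01 (chrII:1597996-1598155, minus strand): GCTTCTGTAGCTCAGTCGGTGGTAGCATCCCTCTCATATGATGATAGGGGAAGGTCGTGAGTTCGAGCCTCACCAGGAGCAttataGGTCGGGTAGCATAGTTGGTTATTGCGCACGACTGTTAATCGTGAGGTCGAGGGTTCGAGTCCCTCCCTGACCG
The Ser gene of the unit shown uppermost has the anticodon CGA and those of the other Ser units TGA. The units of SPATRNASER.03 and SPCTRNASER.11, on different chromosomes, differed at 1 of 176 positions, and both differed from the CGA unit, at 8 and 7 positions. The bases between the genes were the same in the printed Ser units. In the last unit, at the left end of the 12-gene cluster, an elongator Met gene is followed after 5 bases by an Asn gene.

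Introns were annotated in 44 of the 171 nuclear genes (25.7%), in 10 amino acids, and were 7 to 30 bases long (median 9.5). There were 26 distinct intron sequences, a number that counts SPBTRNALYS.07 and SPBTRNASER.06 apart from their genomically identical genes through annotated intron bounds alone. In the 42 intron-bearing genes whose anticodon was found, the intron began 1 base after the anticodon. An intron was present in every gene of 15 anticodons and in some genes of CAT (Met), where the elongator genes had one. Tyr was the amino acid in which every gene had one. Among the 12 anticodons with a single gene, 8 genes had an intron, against 36 of the 159 genes of other anticodons. Inside the coding-free stretches 18 of 55 genes had an intron (32.7%), outside them 26 of 116 (22.4%). Those inside were Val AAC, Leu CAA, Lys CTT, Tyr and elongator Met genes, groups in which every gene had an intron. Many are repeated copies, so they are not independent of each other. Introns varied where the spliced gene did not. The 9 Val AAC genes are the same after splicing but have 2 introns, one of 8 bases in SPATRNAVAL.03 and one of 9 bases in the 8 others, 7 of which lie in the stretches. Genes with the longest intron, a short one, and different introns around the same spliced sequence are shown with the intron in capitals.
SPBTRNAARG.05 (chrII:1160893-1160994, minus strand): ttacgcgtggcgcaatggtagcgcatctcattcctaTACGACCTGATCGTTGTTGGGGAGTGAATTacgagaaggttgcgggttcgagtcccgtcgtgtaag
SPBTRNAMET.04 (chrII:658451-658531, plus strand): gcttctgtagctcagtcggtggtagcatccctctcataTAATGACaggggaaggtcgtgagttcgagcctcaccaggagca
SPATRNAVAL.03 (chrI:2214733-2214814, minus strand): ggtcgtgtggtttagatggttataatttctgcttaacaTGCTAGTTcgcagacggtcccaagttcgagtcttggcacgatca
SPBTRNAVAL.05 (chrII:1600967-1601049, minus strand): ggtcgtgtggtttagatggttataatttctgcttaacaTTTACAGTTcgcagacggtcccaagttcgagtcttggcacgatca
SPATRNATYR.01 (chrI:1746464-1746547, plus strand): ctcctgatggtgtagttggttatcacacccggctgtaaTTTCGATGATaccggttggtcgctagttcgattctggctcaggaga
SPBTRNATYR.02 (chrII:1598511-1598594, plus strand): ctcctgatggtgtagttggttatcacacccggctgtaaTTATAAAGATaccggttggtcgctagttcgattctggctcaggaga
SPBTRNAARG.05, the single gene with anticodon CCT, had the intron of 30 bases, and SPBTRNAMET.04 one of 7 bases. Both Tyr genes have introns of 10 bases and differ at 4 positions, all of them lost on splicing.

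The elements known for RNA polymerase III were searched as plain letter patterns on the strand of the gene in RefSeq ASM294v3, beside the same search over the 12435 other nuclear RefSeq genes. TTTT, the terminator run, started and ended within the 20 bases after the gene in 160 of 171 tRNA genes (93.6%), against 21.5% of the other genes. Over the 167 genes with TTTT within 40 bases, it first occurred at a median of 4 bases after the gene. The 5th and 95th percentiles were 1 and 16.7 bases. On the opposite strand of the window of 20 bases TTTT was found after 9.94% of the tRNA genes and 21.2% of the other genes. The B box pattern GTTCNANNC was in 156 spliced genes (91.2%), against 1.59% of windows of 100 bases from the middle of other genes. A strict form of the A box was in 28 (16.4%) against 0.450%. The pattern TATA, which reads the same on both strands, was found in the 50 bases before the gene in 133 genes (77.8%) against 31.6%. Of its 280 starts, 201 (71.8%) lay 28 to 38 bases before the gene, with a median over all starts of 33 bases. The other genes also had TATA most often in that window, with 2306 of their 5835 starts (39.5%) there. The window held a start in 116 tRNA genes (67.8%) and in 13.6% of the others. That window was set after the positions were seen. A match or its absence is a description of letters and shows neither a working site nor the lack of one.

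**Figure D5:**
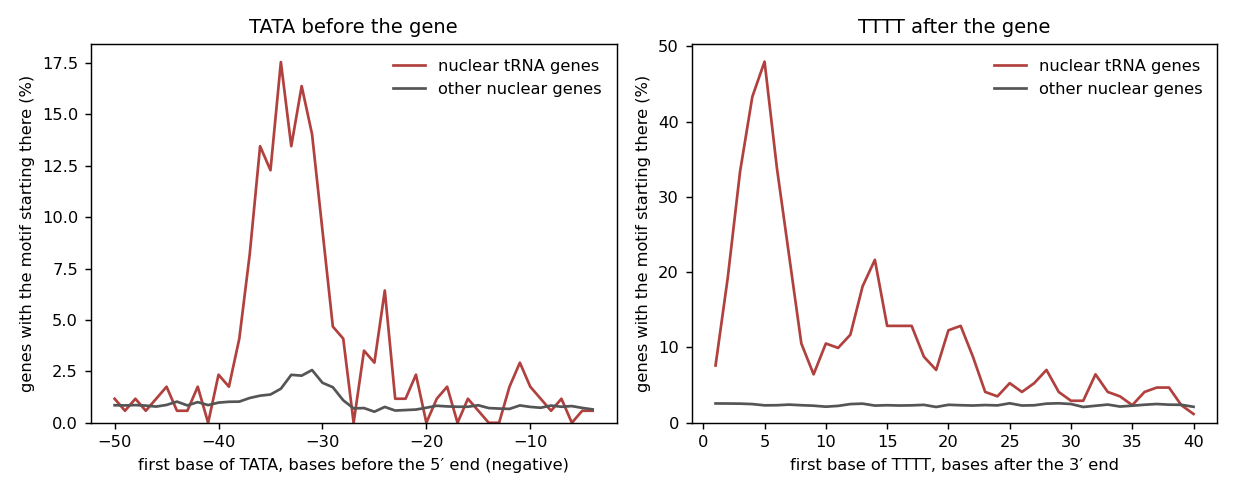
Share of genes (%) in which TATA (left) or TTTT (right) starts at each base before the 5′ end or after the 3′ end of the gene, for the 171 nuclear tRNA genes (red) and the 12435 other nuclear RefSeq genes (grey). Most tRNA starts of TATA lie 28 to 38 bases before the gene, and those of TTTT rise within the first bases after it.

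Genes without a pattern were few for TTTT and the B box. Of the 11 without TTTT in 20 bases, 4 were the upstream genes of the 4 close-set units, whose next gene begins 5 or 7 bases later. The other 7 were SPBTRNAGLN.01, SPCTRNAGLN.06, SPBTRNATHR.06, SPCTRNATHR.10, SPCTRNALYS.10, SPCTRNALYS.11 and SPCTRNASER.13. Of the 15 without the B box pattern, 9 were all of the Ala AGC genes and 4 all of the initiator Met genes. The remaining pair were SPATRNAARG.01 (CCG) and SPBTRNAASP.05. TATA was in 35 of the 55 genes of the coding-free stretches (63.6%) and in 98 of the 116 outside (84.5%), while TTTT was in 52 (94.5%) and 108 (93.1%). Repeated copies in the stretches share flanking sequence, so these genes are not independent of each other. The Ala AGC family shows how genes with the same sequence can differ before the gene. Its 9 genes had 5 different upstream sequences of 50 bases, printed here 5′ to 3′ up to the base before the gene, with TATA in capitals.
SPATRNAALA.01 (chrI:934739-934788, minus strand): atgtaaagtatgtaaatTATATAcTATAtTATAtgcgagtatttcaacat
SPATRNAALA.04 (chrI:3765082-3765131, minus strand): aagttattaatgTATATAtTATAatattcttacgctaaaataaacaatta
SPBTRNAALA.07 (chrII:285626-285675, plus strand): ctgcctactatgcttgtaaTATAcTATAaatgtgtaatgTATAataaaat
SPBTRNAALA.08 (chrII:1600307-1600356, minus strand): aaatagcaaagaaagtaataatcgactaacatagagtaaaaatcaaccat
SPCTRNAALA.12 (chrIII:1065118-1065167, minus strand): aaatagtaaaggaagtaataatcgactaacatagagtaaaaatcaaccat
SPATRNAALA.05 shares the sequence of SPATRNAALA.04, and the 3 other Ala genes of the chromosome II stretch share that of SPBTRNAALA.08. TATA occurred 3 or 4 times before the genes on chromosome I and before SPBTRNAALA.07, which stands outside the stretch, and 0 times before the 4 genes of the chromosome II stretch and the gene on chromosome III. All 9 genes were followed by TTTT, starting 2 to 4 bases after the gene.

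The deposited names, the RefSeq products and the sequences disagreed for a few genes. Strand and presence were the same in both annotations for all 171 nuclear genes. Of the 8 genes named Asp, 5 have the product tRNA-Asn in RefSeq: SPBTRNAASP.05 and SPCTRNAASP.05 to SPCTRNAASP.08. The 4 on chromosome III carry the Asp anticodon GTC. SPBTRNAASP.05, at the right end of the 12-gene cluster, is on the plus strand in both annotations, and its sequence on that strand is the reverse complement of the 7 other, identical Asp genes.
SPBTRNAASP.05 (chrII:1602347-1602417, plus strand): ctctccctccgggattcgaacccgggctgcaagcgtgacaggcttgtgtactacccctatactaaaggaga
The B box pattern occurred 0 times on the annotated strand and 1 time on the other, whereas TTTT was found within 20 bases after the gene on either strand. Read on the minus strand, this gene and its Arg neighbour, 85 bases away, have the order and relative strands of the 3 Arg and Asp pairs on chromosome III. A disagreement of intron bounds concerned SPBTRNALYS.07, whose annotated intron of 7 bases differs from the 8 bases of the genomically identical SPBTRNALYS.08, and SPBTRNASER.06, with 9 bases against 11 in the identical SPCTRNASER.10. The latter pair is shown with the annotated intron in capitals.
SPBTRNASER.06 (chrII:3350594-3350688, plus strand): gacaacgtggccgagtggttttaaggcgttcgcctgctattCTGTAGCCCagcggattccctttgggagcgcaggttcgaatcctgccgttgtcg
SPCTRNASER.10 (chrIII:1253193-1253287, plus strand): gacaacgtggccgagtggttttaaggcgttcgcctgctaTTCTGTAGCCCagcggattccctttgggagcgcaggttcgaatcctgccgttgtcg
The spliced length of 86 bases, the longest, belongs to SPBTRNASER.06 and rests on that bound.

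The study's break site lies in one of the wider intervals between tRNA genes. The nearest tRNA genes on chromosome II were SPBTRNAARG.05 (1160892 to 1160994, minus strand), 70.1 kb to the left of the cut site, and SPBTRNALEU.05 (1404285 to 1404383, minus strand), 173 kb to the right. The gap between them was 243 kb, and 5.95% of the gaps between neighbouring nuclear tRNA genes were as long or longer. On chromosome II, 18 tRNA genes lay left and 50 right of the break, and the coding-free stretch began 367 kb away.

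The 25 mitochondrial tRNA genes differed from the nuclear set in arrangement. All were on the plus strand, together with the 2 ribosomal RNA genes they made up the 27 mitochondrial features, and they covered the 20 amino acids with 2 genes each for Arg, Ile, Leu, Met and Ser. Features were 70 (Cys) to 87 (Tyr) bases long and summed to 1888 bases. The median gap over the 24 neighbouring pairs was 27.5 bases (4 to 5151), and 15 gaps were under 100 bases. Runs with gaps under 100 bases numbered 6. In order they were Lys, Ser and Asn; then Arg and Thr; then Met, Phe, Asp, Gly, Leu, Trp and Leu; then His, Pro and Gln; then Cys, Val and Tyr; and last Arg, Ile and Ser. The 7-gene run spanned 14080 to 14669 of the mitochondrial sequence. Of the genes in no run, Met stood between the Lys and the Arg runs, Ile between the His and the Cys runs, and Ala and Glu at the right end. The RefSeq mitochondrial genome is of another isolate, with other locus tags, but the 25 amino acids came in the same order at 25 of 25 places. It gives the 2 Met genes as an elongator and an initiator and the 2 Ile genes as gau and cau, and the Ile gene with the anticodon CAT of Met is shown beside the elongator Met gene (RefSeq positions, anticodon in capitals).
Mitochondrial Ile (chrMT:17544-17615, plus strand): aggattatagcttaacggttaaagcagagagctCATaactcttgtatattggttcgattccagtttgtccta
Mitochondrial elongator Met (chrMT:4591-4665, plus strand): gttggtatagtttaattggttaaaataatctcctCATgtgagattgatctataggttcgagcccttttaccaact
The GC content of the RefSeq mitochondrial tRNA genes was 38.7%, against 30.1% for that genome and 54.4% for the nuclear tRNA genes.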

How the data were processed

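The deposited annotation of the modified genome is a BED file; its starts and ends are coordinates counted from 0, given here from 1, and the deposited score is 0 for every feature and was not used. The origin of the authors' intervals is not stated. Bowtie2 and the build ASM294v2 are named per the submitters' processing notes. The libraries, whose depth is therefore unknown, and the sequence of the modified genome were not analysed here. The insert was read for its length alone.

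The tRNA features were matched by locus tag to the RefSeq annotation of ASM294v3, from which introns, products, sequences and proteins came. Anticodons were taken from a stem of 5 bases, at least 4 of them paired, beginning at bases 25 to 29 of the spliced gene, with a loop of 7 bases whose triplet encodes the named amino acid. Clusters were runs of 2 or more tRNA genes less than 5 kb apart, edge to edge, on any strand. Genes were named by rule: members of clusters of 5 or more, anticodons with 1 gene or the most, the 3 closest and 3 farthest pairs, the tRNA genes flanking the break, the shortest and longest features and introns, annotation differences, and all mitochondrial genes. Other genes named were chosen after their values were seen. Members and lists were chosen with earlier results of these data known. The list is complete and no test was run. The functions returned the known answers on simulated data. Python 3.11.15, numpy 2.4.6, scipy 1.17.1, edlib 1.3.9.post1 and matplotlib 3.10.9 were used.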

Additional observations from a re-analysis of the deposited data

How the results depend on the processing

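For 13 results 36 alternatives were run, and 27 left the value within a set limit. The limit was 1.5 times for counts and distances, 0.1 for the correlation, and the 95% Wilson interval for shares. That interval served only as a width, since the list has no sampling error, and the limits are not equally strict. Several alternatives could hardly move a count, strand share or spacing, because RefSeq matched the 171 nuclear features 1 to 1. The number 27 is therefore no measure of robustness. Joining distances of 2 and 10 kb gave 18 and 20 clusters with 66 and 82 genes, joining on the same strand alone 23 clusters with 50 genes, and joining where no other feature lies between 21 with 69. Leaving out the genes of the coding-free stretches, an alternative chosen after seeing the data, left 10 clusters with 21 genes and a median spacing of 74018 bases. Opposite-strand overlap of tRNA features was 13.5% in RefSeq, against 2.34% in the deposited annotation. TTTT followed 80.7% of the genes within 10 bases and 97.7% within 40. The B box pattern with 1 mismatch was in 94.7%, but then also in 32.0% of the windows of other genes. TATA was found in 88.9% within 100 bases, and TATAA in 39.8% within 50. Also added after seeing the data, the stretches from deposited features held the same number of tRNA genes, 55, and RefSeq the same number of mitochondrial genes, 25. No paired analysis was possible because the deposited files used here hold no value of any sample. The annotation has no depth, and what the libraries' depth limits is not analysed here.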

Other observations

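Few tRNA features shared bases with other annotated features. Of the 171 nuclear ones, 161 (94.2%) overlapped no other feature, and 4 (2.34%) overlapped a feature on the opposite strand, against 60.1% of all nuclear features. In RefSeq, the same shares were 13.5% and 89.2%. These shares were not adjusted for length, and tRNA features are short, with a median of 74 bases against 1667 for the other nuclear features. In the deposited annotation those 4 were SPATRNATYR.01, which shared 81 bases with dal81, SPATRNAALA.03, which shared 64 bases with peg1, SPATRNAVAL.04, which lay wholly inside ppk3, and SPBTRNAGLU.08, which lay wholly inside the noncoding SPNCRNA.1669. On the same strand, 6 features overlapped another, among them SPATRNALEU.03 wholly inside SPAC17G6.03, and SPATRNAARG.02, which shared 69 bases with prm1. The median distance to the nearest feature that is no tRNA gene was 230 bases outside the coding-free stretches and 1089 bases inside them. By definition no coding gene lies inside the stretches, which by itself lengthens the distance there, so these distances are not like for like.

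In budding yeast, Ty retrotransposons are known to insert near tRNA genes, so distances to the long terminal repeats (LTRs) of retrotransposons were taken in RefSeq ASM294v3. Of the 171 tRNA genes, 7 (4.09%) lay within 1 kb of 1 of the 238 annotated LTRs, against 6.71% of the 5113 protein-coding genes. These 7 were all among the 116 tRNA genes outside the coding-free stretches, so the share over all tRNA genes also reflects the 55 genes inside. The median distance was 47637 bases for all tRNA genes, those inside the stretches included, and 25109 bases for coding genes. Neither the shares nor the distances were adjusted for length, and 1 kb around a longer gene covers more sequence. Deposited tRNA features had a median length of 74 bases and the other nuclear features 1667. The nearest tRNA gene was SPATRNAVAL.01, 3 bases from an LTR, followed by SPATRNATHR.05 at 289 bases. The names in both paragraphs were chosen after their values were seen.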
